A study of Mus musculus with 11 samples.

Results

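B lineage cells of the mouse cerebral cortex were compared between postnatal development, adulthood, ageing and experimental autoimmune encephalomyelitis (EAE), a model of brain inflammation in which mice are immunized with a myelin peptide. The cells come from a droplet single-cell RNA-seq data set of perfused, myelin-depleted cortex of C57BL/6 mice, sequenced from the 3′ end of transcripts. Per the study's methods the meninges were taken off with filter paper before dissection, and what remained of them is not known. A cell was counted as B lineage when it held at least 3 unique molecular identifiers (UMIs, 1 per captured transcript) of Cd79a, Cd79b and Ms4a1 together, at most 1 of the T cell receptor genes Cd3d, Cd3e and Cd3g, at most 3 of the myeloid genes C1qa, Csf1r and Lyz2 and at most 2 of the endothelial genes Cldn5 and Flt1. This rule found 422 cells among 50625 cells kept for their gene number (above 500, below 6000) and mitochondrial share of UMIs (below 25%), out of 54646 barcodes. Levels of these 11 genes were set by the choice of the cells, so they are not compared and were left out of the marker counts and sums given here.

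The Juvenile group held 4 libraries from untreated mice at postnatal day 10 (P10) and the Adult group 3 libraries from untreated mice of 7 to 11 weeks, with cortices of 6 mice pooled in each of these groups. The Aged group held 2 libraries from untreated mice of 18 months. The EAE group held 2 libraries from mice of 7 to 11 weeks at the peak of disease, immunized with a myelin oligodendrocyte glycoprotein peptide in complete Freund's adjuvant and given pertussis toxin. Tissue of 3 mice was pooled for the Aged and for the EAE samples. The Adult mice got neither adjuvant nor toxin, so the parts of the immunization cannot be told apart, and the labels do not say whether libraries of a group came from separate pools. P-values therefore measure the spread between libraries, which may be technical.

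B lymphocytes arise from precursors that rearrange the immunoglobulin heavy chain first. The new heavy chain is tested on the surface together with a surrogate light chain, built from the products of Vpreb1 or Vpreb2 and Igll1, and cells that pass divide and then rearrange a kappa or lambda light chain. Maturing cells gain MHC class II, which shows peptides to helper T cells, and homing receptors. After activation they can replace the IgM constant region by IgG, IgA or IgE and become plasma cells, which secrete antibody and lose Pax5 and MHC class II. Few B cells are found in the healthy brain.

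The results below turn on 2 sets of genes, those of the surrogate light chain complex and those of MHC class II. Start regions of some members are shown so that their letters can be read beside the levels, and no relation between the motifs and the levels was tested. Each line gives the 250 bases before and 50 after the start site on the coding strand, from RefSeq on GRCm38.p6, with motif matches in capitals. Igll1 lies at chr16:16863936-16864235 (minus strand), Vpreb1 at chr16:16869206-16869505 (minus), Vpreb3 at chr10:75948050-75948349 (plus), H2-Aa at chr17:34287774-34288073 (minus) and H2-Eb1 at chr17:34305617-34305916 (plus).
Igll1: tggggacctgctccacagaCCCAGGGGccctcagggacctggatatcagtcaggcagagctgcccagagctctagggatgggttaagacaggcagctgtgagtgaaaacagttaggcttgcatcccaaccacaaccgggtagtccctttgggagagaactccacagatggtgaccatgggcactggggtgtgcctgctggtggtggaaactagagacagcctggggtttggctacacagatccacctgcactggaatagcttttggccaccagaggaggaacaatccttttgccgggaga
Vpreb1: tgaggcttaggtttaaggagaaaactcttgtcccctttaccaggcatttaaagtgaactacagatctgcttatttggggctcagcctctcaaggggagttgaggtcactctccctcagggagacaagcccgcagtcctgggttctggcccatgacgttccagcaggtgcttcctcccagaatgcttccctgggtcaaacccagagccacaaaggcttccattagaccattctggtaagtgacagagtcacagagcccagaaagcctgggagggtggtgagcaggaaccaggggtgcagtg
Vpreb3: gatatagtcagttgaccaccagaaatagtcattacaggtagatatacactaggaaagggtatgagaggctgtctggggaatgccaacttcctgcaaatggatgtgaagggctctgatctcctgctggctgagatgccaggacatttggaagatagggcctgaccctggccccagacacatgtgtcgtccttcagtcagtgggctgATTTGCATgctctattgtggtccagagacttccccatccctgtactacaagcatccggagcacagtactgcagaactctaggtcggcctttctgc
H2-Aa: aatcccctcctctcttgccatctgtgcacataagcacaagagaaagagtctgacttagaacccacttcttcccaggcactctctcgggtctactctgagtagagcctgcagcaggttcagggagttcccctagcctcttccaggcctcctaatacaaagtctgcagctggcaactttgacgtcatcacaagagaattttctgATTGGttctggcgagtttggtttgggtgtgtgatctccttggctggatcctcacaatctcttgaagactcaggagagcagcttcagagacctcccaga
H2-Eb1: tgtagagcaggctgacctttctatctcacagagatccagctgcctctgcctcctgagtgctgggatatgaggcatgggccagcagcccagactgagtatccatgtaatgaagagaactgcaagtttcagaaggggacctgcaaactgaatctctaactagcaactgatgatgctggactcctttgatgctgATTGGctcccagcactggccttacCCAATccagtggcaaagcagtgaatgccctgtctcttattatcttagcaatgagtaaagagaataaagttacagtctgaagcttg

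The capitals mark CCCNNGGG, the core of the sites bound by the early B cell factor Ebf1, ATGCAAAT, the octamer bound by Oct factors in immunoglobulin promoters, and CCAAT, the box bound by NF-Y. Both strands were searched and the 3 motifs do not share letters in these windows. CCAAT was found in 6 of 8 start regions matched in the MHC class II list (75.0%) and in 37.9% of 27025 mouse start regions. CCCNNGGG was found in 3 of 15 start regions of the early B list (20%) and in 13.4% of all. The octamer was found in 1 of these 15, that of Vpreb3, in none of the 8 MHC class II start regions and in 1.75% of all. No motif was found in the Vpreb1 window. A match describes the letters and is not a measured site.

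The 11 libraries held 2787 to 8525 barcodes and 15755504 to 34326349 UMIs each, and the B lineage cells 5 to 75 per library. Their median depth ran from 1496 UMIs in Aged 1 to 3029 in Juvenile 2. Cells of Adult 1 stood apart from those of Adult 2 and 3, and Juvenile 1 and 2 apart from Juvenile 3 and 4: among endothelial cells, chi-square per degree of freedom was 3.38 between Adult 2 and 3 against 16.7 and 15.8 to Adult 1, and 2.18 and 3.22 within the Juvenile pairs against 10.9 to 15.0 between them. It was 2.84 between the Aged and 2.32 between the EAE libraries, which thus differed no more than Adult 2 and 3. Among B lineage cells it was 1.61 between Adult 2 and 3, 2.65 between Juvenile 3 and 4, 2.58 between the Aged and 6.34 between the EAE libraries. Only Adult 2 and 3 were summed to 1 unit. Juvenile 1 and 2, with 5 and 7 B lineage cells, fell under the minimum of 10 cells and took no part in the gene tests, so Juvenile stands there for libraries 3 and 4. Libraries shared 10 to 113 kept barcodes per pair, and no barcode of a B lineage cell was shared.

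The label was checked on genes outside the rule. At least 1 UMI of Pax5 or Ebf1, genes of B cell identity, was found in 417 of 422 cells. Ighm, the IgM constant region, was found in 407 cells and Igkc, the kappa constant region, in 366. The 8 T cell markers outside the rule summed to 5.56 to 85.1 UMI counts scaled to 1000000 UMIs (CPM) per library, and natural killer cell markers were at 0 in 9 libraries, with 14.9 and 28.0 CPM in the EAE libraries. At the limit of the rule, 25 cells held exactly 3 UMIs and 25 others held 2 and stayed out. In EAE 2 these were 2 and 8 cells, in EAE 1 they were 7 and 3. Of 518 cells that reached 3 UMIs, 69 were removed for myeloid and 37 for endothelial UMIs.

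B lineage cells were 1.44% of kept cells in the Adult group, 1.29% in the Aged, 0.748% in the Juvenile and 0.232% in the EAE group. In single libraries the share was 0.187% (95% exact Clopper-Pearson interval 0.0607 to 0.435), 0.274%, 1.08% and 1.07% in Juvenile 1 to 4, 0.691%, 1.96% and 1.54% in Adult 1 to 3, 1.47% and 1.09% in the Aged and 0.3004% (0.195 to 0.443) and 0.161% (0.0855 to 0.274) in the EAE libraries. Both EAE libraries lay below all Adult and Aged ones, and Juvenile 1 and 2 lay in the EAE range. The myeloid limit removed unequal parts of the cells that reached 3 UMIs. These were 11 of 16, 7 of 16, 9 of 57 and 9 of 54 in Juvenile 1 to 4, and 6 of 29, 2 of 84 and 2 of 66 in Adult 1 to 3. In the Aged libraries they were 2 of 81 and 8 of 63, and in the EAE libraries 4 of 30 and 9 of 22. Shares without this limit were not tested. Over units the mean was 0.230% ± 0.0989 (SD, n = 2) in EAE and 1.22% ± 0.747 (SD, n = 2) in Adult. An exact two-sided permutation test gave p = 0.333, the smallest p that 2 against 2 allows. Juvenile (0.653% ± 0.489, n = 4) against Adult gave an exact p of 0.4 with a smallest possible p of 0.0667, and Aged (1.28% ± 0.268, n = 2) against Adult gave 1.0. A share of cells depends on all other cells kept, and EAE libraries held 8322 and 8096 kept cells against 3184 to 3890 in Adult libraries.

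**Figure D1:**
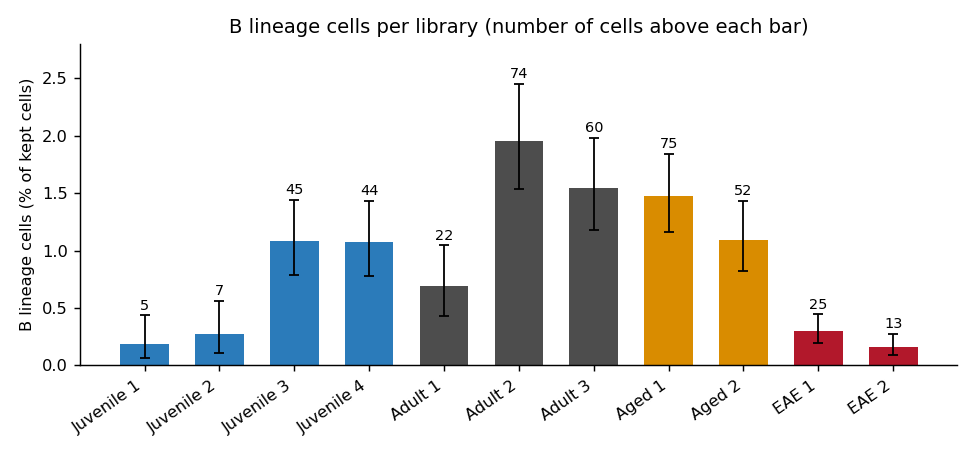
Share of kept cells that are B lineage cells (percent, y axis) in each of the 11 libraries (x axis, by group), with 95% exact Clopper-Pearson intervals that cover counting error only. The 2 EAE libraries sit at 0.3004% and 0.161%, below the Adult libraries at 0.691% to 1.96% and the Aged ones at 1.47% and 1.09%.

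Cells with surrogate light chain transcripts made up much of the Juvenile B lineage. At least 2 UMIs of Vpreb1, Vpreb2 and Igll1 together were found in 30 of 101 Juvenile cells, 3 of 156 Adult cells, 5 of 127 Aged cells and none of 38 EAE cells. The Juvenile ones were 13 cells of Juvenile 3, 16 of Juvenile 4 and 1 of Juvenile 2. After each cell was thinned to 800 UMIs, at least 1 early B cell transcript (of Rag1, Rag2, Dntt, Vpreb1 or Igll1) was found in 28.9% of cells in Juvenile 3 (95% exact interval 16.4 to 44.3) and 34.1% in Juvenile 4 (20.5 to 49.9). The share was 0% and 14.3% in Juvenile 1 and 2, 4.55%, 6.76% and 8.47% in Adult 1 to 3, and 12% and 13.5% in the Aged libraries. The transcripts behind the share differed by group. Before thinning, 36 Juvenile, 21 Adult and 23 Aged cells held one. A UMI of Vpreb1, Vpreb2 or Igll1 was found in 31, 4 and 6 cells of these groups, and one of the recombinase genes Rag1 and Rag2 in 15, 19 and 19. None of 25 cells in EAE 1 and none of 13 in EAE 2 held one, which allows up to 13.7% and 24.7%. In endothelial cells and microglia of the same libraries the thinned share was 0% to 0.6%. The unit means were 31.5% ± 3.68 in Juvenile, 6.03% ± 2.10 in Adult and 12.7% ± 1.03 in Aged (SD, n = 2 each), and Juvenile and Aged each gave an exact two-sided permutation p of 0.333 against Adult, the smallest possible.

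**Figure D2:**
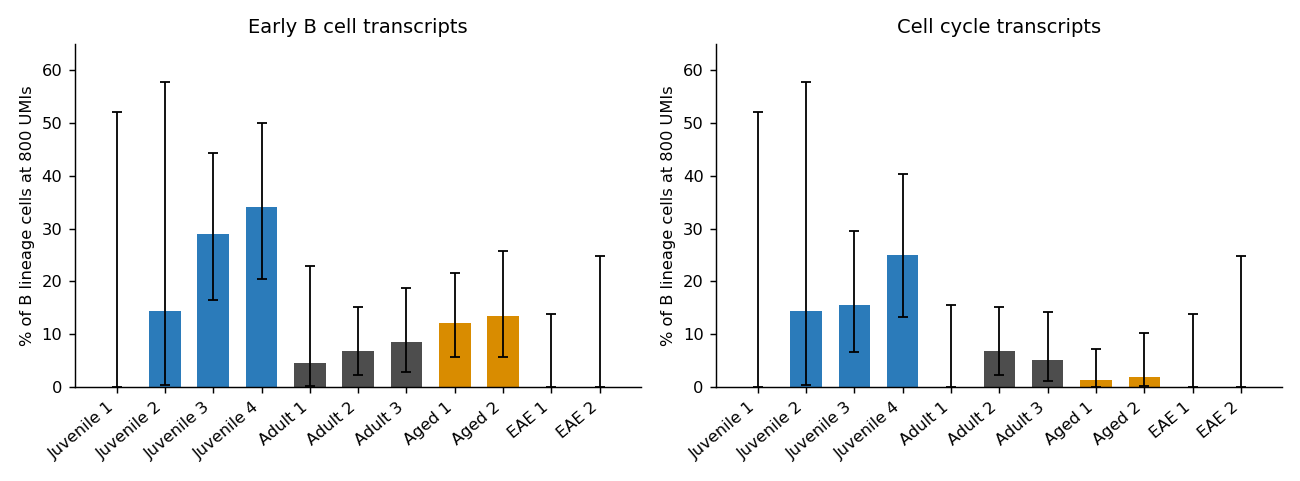
Shares of B lineage cells (percent, y axes) with early B cell transcripts and with cell cycle transcripts after thinning to 800 UMIs, by library, with 95% exact Clopper-Pearson intervals. Early B cell transcripts were found in 28.9% and 34.1% of cells in Juvenile 3 and 4 and in none of the cells of the EAE libraries.

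Gene by gene, levels in the summed cells were tested with edgeR's quasi-likelihood test over 8 units, and 2352 genes passed the filter on low counts. Between Juvenile and Adult, 383 genes were called at an adjusted p under 0.05, 16.3% of those tested, with 178 higher (7.57%) and 205 lower (8.72%) in Juvenile. DESeq2 called 121 genes, 41 higher and 80 lower, and 73 of 1598 genes were called with near-identical libraries summed. Leaving out Juvenile 4 left 155 calls and leaving out Juvenile 3 left 238. The count without all cells that held 2 surrogate light chain UMIs was 59 of 1426 genes tested. Fewer genes passed the filter on low counts there.

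Of 18 early B genes, 13 passed the filter and 3 rose in Juvenile cells, with a median log2 difference of 0.85 against 0.01 over all genes tested. DESeq2 called 0 of the 13, with 4 at an unadjusted p under 0.05. Vpreb2, a surrogate light chain gene, stood at 119 and 177 CPM in Juvenile 3 and 4, at 0, 16.7 and 25.4 CPM in Adult 1 to 3, and at 0 in Juvenile 1 and 2. Both Juvenile libraries in the test were above every Adult library (log2 difference 3.13, SE 0.80, edgeR adjusted p = 0.00766). Vpreb3, whose product binds immunoglobulin chains in early B cells, had 331, 1025, 2670 and 2887 CPM in Juvenile 1 to 4 and 1008, 1628 and 2198 in Adult 1 to 3. It rose in libraries 3 and 4 (log2 difference 0.91, SE 0.23, edgeR adjusted p = 0.0113), and lost the call with Juvenile 1 and 2 in the fit (log2 difference 0.34, adjusted p = 0.791). Lef1, a transcription factor of dividing B cell precursors, rose from 16.5 to 77.8 CPM in the Adult libraries to 163 and 196 CPM in Juvenile 3 and 4 (log2 difference 1.55, SE 0.44, edgeR adjusted p = 0.0167).

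Vpreb1 and Igll1 were spread unevenly over the libraries. Vpreb1 had 0, 197, 1126 and 1381 CPM in Juvenile 1 to 4, 0, 0 and 211 in Adult 1 to 3, 45.6 and 259 in the Aged libraries and 0 in both EAE libraries. In Adult 3, 24 of its 25 UMIs came from 1 cell. Igll1 had 0, 0, 1338 and 1964 CPM in Juvenile 1 to 4, 0, 133 and 237 in Adult 1 to 3, 53.2 and 461 in the Aged libraries and 0 in the EAE libraries. Juvenile 3 and 4 were above all other libraries for both genes, yet neither passed the test against Adult (Vpreb1 log2 difference 4.28, SE 0.92, edgeR adjusted p = 0.0515, and Igll1 3.72, SE 1.31, adjusted p = 0.183). The call on Vpreb1 moved with the settings, since 11 of 22 alternatives called it. Vpreb1 and Vpreb2 are close copies, so their split is uncertain. Dntt, the enzyme that adds bases to the joints of heavy chain genes, was found in 20 Juvenile cells, all with 2 or more surrogate light chain UMIs, against 1 Adult and 2 Aged cells (Juvenile against Adult log2 difference 3.60, SE 1.22, edgeR adjusted p = 0.137).

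**Figure D3:**
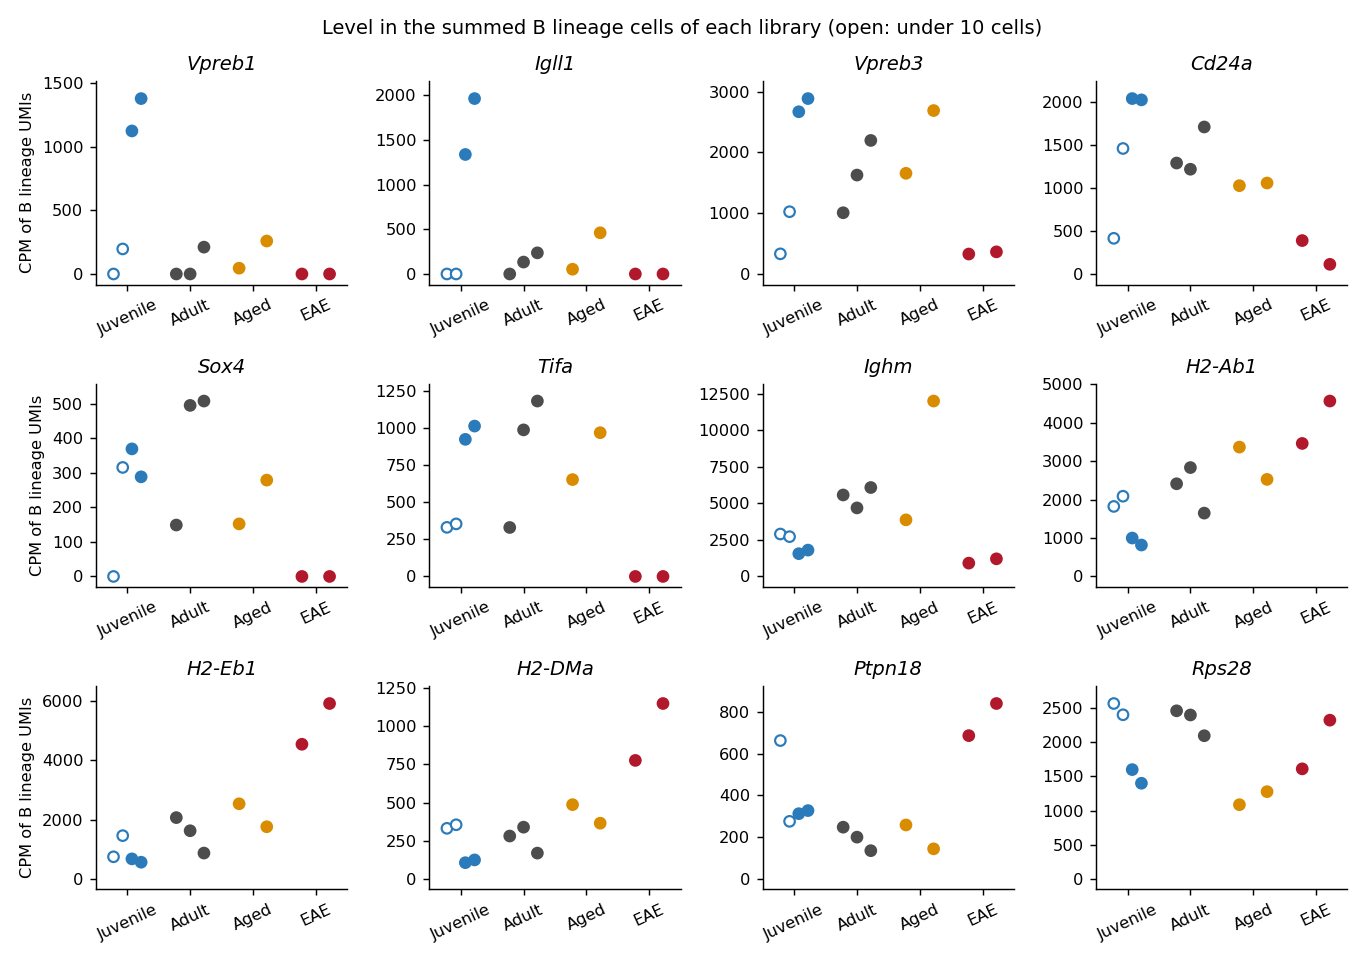
Levels of selected genes (CPM of summed B lineage cells, y axes) in the 11 libraries (x axis, by group), with open circles for libraries of under 10 B lineage cells. Igll1 stood at 1338 and 1964 CPM in Juvenile 3 and 4 and at 0 in both EAE libraries, where H2-Eb1 stood at 4538 and 5911 CPM.

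The Juvenile cells with and without surrogate light chain transcripts differed in other genes, given here as a description since the first group was picked by its counts. The 30 cells with at least 2 UMIs had a median depth of 3399 UMIs, against 1892.5 in the 70 cells with none, and the 1 cell with a single UMI is left aside. At least 2 UMIs of cell cycle genes were found in 46.7% of the former and 11.4% of the latter. At least 5 UMIs of Igkc were found in 26.7% and 91.4%, and at least 2 UMIs of MHC class II genes in 13.3% and 62.9%. In Adult cells without the surrogate light chain the class II share was 56.6% and the Igkc share 79.6%. Class II UMIs were found in 80% and 71.4% of all cells of Juvenile 1 and 2 and in 51.1% and 38.6% of those of Juvenile 3 and 4, so the Juvenile shares pool libraries that differ. The cell cycle share was 4.61% in Adult and 0.826% in Aged cells without the surrogate light chain. These shares were not matched for depth.

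**Figure D4:**
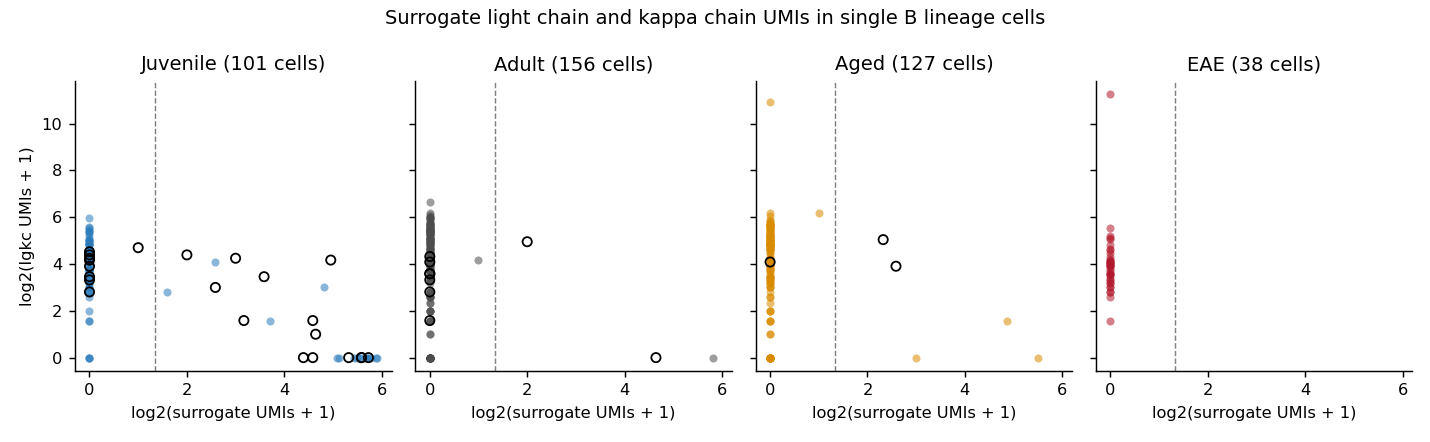
Single B lineage cells by their surrogate light chain UMIs (x axis) and kappa chain (Igkc) UMIs (y axis), both on log axes, with 1 panel per group, a dashed line at the limit of 2 surrogate UMIs and black rings around cells with at least 2 cell cycle UMIs. Lambda chain UMIs are not shown. In the Juvenile panel 30 of 101 cells lie past the line, in the EAE panel none of 38.

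Cell cycle transcripts were found in B lineage cells of Juvenile, Adult and Aged libraries. At 800 UMIs per cell, at least 2 UMIs of 8 cell cycle genes were found in 0%, 14.3%, 15.6% and 25% of cells in Juvenile 1 to 4, in 0%, 6.76% and 5.08% in Adult 1 to 3, in 1.33% and 1.92% in the Aged and in 0% in both EAE libraries. The Juvenile unit mean was 20.3% ± 6.68 and the Adult one 3.01% ± 4.25 (SD, n = 2 each, exact permutation p = 0.333, the smallest possible). In endothelial cells and microglia the same share was 3.0% to 9.0% in the Juvenile libraries, 0% to 0.4% in the Adult and Aged ones and 0% to 1.2% in EAE. The B lineage shares of Juvenile 3 and 4, Adult 2 and 3 and both Aged libraries were above those of both cell types in the same library, but each Aged share was 1 cell (95% exact intervals 0.0338 to 7.21% and 0.0487 to 10.3%). Of 21 cell cycle genes 17 passed the filter, and Cdk1, the kinase that starts mitosis, and Nusap1, a spindle protein, rose in Juvenile against Adult, where 7.57% of all genes tested did. Without the surrogate light chain cells 0 of 13 tested were called by edgeR, with 2 at an unadjusted p under 0.05. Cdk1 had 163 and 190 CPM in Juvenile 3 and 4 against 0, 72.3 and 76.1 in Adult 1 to 3 (log2 difference 1.61, SE 0.51, edgeR adjusted p = 0.0357). Top2a, which untangles DNA for division, had 413 and 478 CPM against 0, 400 and 245, close to the level of Adult 2 (log2 difference 0.95, SE 0.87, edgeR adjusted p = 0.538). The median over the 17 genes was 1.14.

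Antigen presentation genes were lower in Juvenile 3 and 4. The MHC class II and costimulation list summed to 10670 and 8308 CPM there, to 29330 and 24520 in Juvenile 1 and 2 and to 17370 to 30840 in the Adult libraries. Of 14 genes of MHC class II and costimulation 11 were tested and 8 fell in Juvenile against Adult, with a median log2 difference of -1.44. H2-Ab1, a class II beta chain, had 1823, 2089, 1000 and 818 CPM in Juvenile 1 to 4 and 2413, 2835 and 1649 in Adult 1 to 3 (log2 difference -1.40, SE 0.17, edgeR adjusted p = 2.54e-06). Cd74, the invariant chain that escorts class II molecules, had 21380, 16000, 7022 and 5611 CPM in Juvenile 1 to 4 and 20470, 16460 and 12060 in the Adult libraries (log2 difference -1.50, SE 0.28, edgeR adjusted p = 0.0362). In the 12 cells of Juvenile 1 and 2, which were not in the fit, neither gene lay below the Adult range, while Cd83 (414 and 355 CPM against 474 to 826) did in both and H2-Eb1 in Juvenile 1 (746 against 871 to 2066). With those libraries in the fit 2 of 11 genes were called, and Cd74 lost its call (log2 difference -0.64, edgeR adjusted p = 0.525). Without the cells carrying surrogate light chain UMIs, 0 of 10 tested genes of this list were called by edgeR, with 4 at an unadjusted p under 0.05 and a median of -0.53. In other cells of the libraries Cd74 stood at 159 to 190 CPM in Juvenile and 505 to 954 in Adult libraries, and the part of free RNA in the B lineage levels was not tested.

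Some genes of the mature naive B cell were also lower in Juvenile 3 and 4. Of 15 listed, 13 were tested and 6 fell in Juvenile against Adult (Bank1, Ccr7, Cd55, Faim3, Fcer2a and Klf2), with a median of -1.34. Klf2, a factor that holds B cells in a resting, recirculating state, had 331, 315, 256 and 242 CPM in Juvenile 1 to 4 and 826, 945 and 575 in Adult 1 to 3, with no overlap (log2 difference -1.71, SE 0.32, edgeR adjusted p = 0.00039). Faim3, the receptor for IgM also called Fcmr, had 163 and 164 CPM in Juvenile 3 and 4 against 499 to 694 in the Adult libraries (log2 difference -1.87, SE 0.33, edgeR adjusted p = 0.000243). Ccr7, the receptor that leads B cells towards T cell zones, had 406 and 340 CPM against 711 to 1156, while Juvenile 1 and 2 had 1077 and 867. Pax5, the factor that fixes B cell identity, had 394 and 439 CPM in Juvenile 3 and 4 against 928 to 1311 in the Adult libraries and passed the test in 23 of 23 alternatives (log2 difference -1.33, SE 0.27, edgeR adjusted p = 0.000944). Without the surrogate light chain cells 0 of 11 tested mature naive genes were called by edgeR, with 2 at an unadjusted p under 0.05, and without Adult 1 the count was 3 of 13.

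All 11 tested genes of the early response to receptor signals, of 14 listed, fell in Juvenile against Adult, with a median of -1.64. Receptor signals were not measured, and what set the levels of these genes was not tested. The count was 7 of 11 with Juvenile 1 and 2 in the fit and 6 of 11 with DESeq2. Myc, a transcription factor that drives growth, had 497 and 591 CPM in Juvenile 1 and 2, above the Adult range of 231 to 289, and 119 and 144 in Juvenile 3 and 4. Its log2 difference was 0.065 with library pairs summed. Ccl4 in Juvenile 1 and 2 (497 and 118 CPM), Ccl3 in Juvenile 1 (82.9 CPM) and Junb and Nfkbid in Juvenile 2 (1734 and 631 CPM) lay in the Adult range. Fos, an immediate early factor, had 0, 118, 43.8 and 45.8 CPM in Juvenile 1 to 4 and 545, 172 and 195 in Adult 1 to 3 (log2 difference -2.76, SE 0.66, edgeR adjusted p = 0.0159). Nr4a1, a nuclear receptor induced by antigen receptor signals, had 414, 394, 313 and 131 CPM against 529, 739 and 930 (log2 difference -1.64, SE 0.36, edgeR adjusted p = 0.00236). In other kept cells Fos stood at 553 to 791 CPM in the Juvenile libraries and 330 to 1042 in the Adult ones, ranges that overlap. Without the surrogate light chain cells 1 of 10 tested genes was called, and Fos had an edgeR adjusted p of 0.133.

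Past these lists, the genes with the largest differences that met the size rule were Vpreb2, Igfbp4, H1f0, Nudcd2 and Bfsp2 among those that rose in Juvenile, and H2-Q7, H2-Q6, Ccl4, Hspa1a and Ly6c1 among those that fell. Bfsp2, an intermediate filament gene, had 181 and 432 CPM in Juvenile 3 and 4 against 16.5 to 59.2 in the Adult libraries (log2 difference 2.64, SE 0.45, edgeR adjusted p = 0.000203). H2-Q7, a non-classical MHC class I gene, was at 0 UMIs in Juvenile 3 and 4 and at 82.6 to 150 CPM in the Adult libraries, at least 13.9-fold lower in Juvenile 3 and 4 against a floor of 3 counts over both. Juvenile 2, not in the fit, had 118 CPM of H2-Q7 (3 UMIs), and Juvenile 1 had 166 CPM of H2-Q6 and 497 of Ccl4. H2-Q7 and H2-Q6 are near-identical copies, so their counts are uncertain, and in other kept cells H2-Q7 stood in the same order, at 2.39 to 4.48 CPM in Juvenile, 13.1 to 17.8 in Adult, 72.4 and 79.8 in Aged and 271 and 276 in EAE libraries. Ly6c1 is an endothelial marker. Of 5 such markers outside the rule, all tested, 4 fell in Juvenile against Adult (Bsg, Itm2a, Ly6c1 and Slco1a4), and the summed level of the 5 was 237 to 969 CPM in the Juvenile and 2173 to 2611 in the Adult libraries. Of 8 microglia and macrophage markers outside the rule 2 were tested and C1qb fell, and the 8 summed to 157 to 497 CPM in the Juvenile and 296 to 711 in the Adult libraries. Red blood cell markers summed to 106 and 124 CPM in Juvenile 3 and 4, 746 and 1458 in Juvenile 1 and 2 and 284 to 3074 in Adult. The part of these cells' RNA in the list results was not tested.

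Aged and Adult B lineage cells differed in 1 gene, 0.0425% of those tested. This was Rps28, a small ribosomal subunit gene, with 1087 and 1278 CPM in the Aged libraries and 2097 to 2462 in the Adult ones (log2 difference -1.02, SE 0.19, edgeR adjusted p = 0.0217). At an unadjusted p under 0.05 there were 213 genes, and DESeq2 called 1 gene, with an adjusted p of 0.614 for Rps28. Without Adult 1 the count rose to 64, and leaving out other libraries gave 3 to 15. Vpreb1 and Igll1 were above 0 in both Aged libraries and Vpreb2 in Aged 2 alone, with most of the UMIs in a few cells: 18 of the 27 Vpreb1 UMIs of Aged 2 were in 1 cell. Igkc had 12350 and 31030 CPM in the Aged libraries and 9465 to 10940 in the Adult ones, with no overlap but an edgeR adjusted p of 0.861. In Aged 2, 1967 of 3230 Igkc UMIs were in 1 cell, and without it the level was 12910 CPM. Zeb2, a factor of age-associated B cells, had 327 and 404 CPM in the Aged and 99.2 to 271 in the Adult libraries (log2 difference 0.94, SE 0.35, edgeR adjusted p = 0.305). Of the other 6 genes listed for those cells, Tbx21, Itgax, Cxcr3 and Fcrl5 were at 0 in the Aged and also in the Adult libraries. Fas had 15.2 and 28.8 CPM in Aged and 0 to 16.5 in Adult, and Itgam had 15.2 and 9.61 CPM in Aged and 0 to 25.4 in Adult.

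Between EAE and Adult, 251 genes were called (10.7%), with 142 higher (6.04%) and 109 lower (4.63%) in EAE. Over all genes tested the median log2 difference was -0.17, a shift against which each value should be read. DESeq2 called 151 genes. Leaving out EAE 1 left 132 calls. Leaving out ribosomal protein genes, a choice made after the values were seen, left 157 of 2414 tested.

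Early B genes were lower in EAE. Of 13 tested, 7 fell against Adult (Bcl7a, Cd24a, Cd93, Ebf1, Myb, Sox4 and Vpreb3). The median was -1.78 where genes at 0 in EAE are put at their bound in plain CPM. Sox4, a factor of B cell precursors, was at 0 UMIs in both EAE libraries and had 149, 495 and 507 CPM in Adult 1 to 3. In plain CPM pooled over the group, Sox4 was at least 15.1-fold lower in EAE, against 3 counts. This and the other bounds for genes at 0 in EAE are smaller on the scale of the fit. Vpreb3 had 328 and 364 CPM in EAE 1 and 2, below every Adult and Aged library (log2 difference -1.68, SE 0.29, edgeR adjusted p = 0.000378). Cd24a, a surface protein high in immature B cells, had 388 and 112 CPM against 1217 to 1708 in the Adult libraries (log2 difference -1.87, SE 0.31, edgeR adjusted p = 8.83e-05). Without EAE 1, Vpreb3 and Sox4 missed the threshold (edgeR adjusted p = 0.0654 and 0.0657) with the direction kept. The count for this list was 1 of 14 without EAE 1, 3 of 14 without EAE 2, 3 of 13 with DESeq2 and 2 of 11 with Juvenile 1 and 2 in the fit. Vpreb1 and Igll1 were at 0 in EAE and did not pass the test against Adult (edgeR adjusted p = 0.548 and 0.607). Vpreb1 was also at 0 in Adult 1 and 2 and Igll1 in Adult 1, and the Adult UMIs came mostly from single cells, so no fold is drawn from them.

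Pax5 had 179 and 168 CPM in EAE 1 and 2, below the Adult range of 928 to 1311, and held its call in 23 of 23 alternatives (log2 difference -2.16, SE 0.35, edgeR adjusted p = 2.77e-05). Bach2, a repressor of plasma cell fate, had 14.9 and 28.0 CPM against 149 to 330 (log2 difference -3.26, SE 0.78, edgeR adjusted p = 0.00455), and missed the threshold without EAE 1 (adjusted p = 0.177). Cd72, an inhibitory partner of the B cell receptor, was at 0 in EAE and at 88.9 to 281 CPM in Adult. In plain CPM it was at least 5.06-fold lower in EAE. Tifa, an adaptor of NF-kB signalling, was at 0 in EAE and at 331 to 1184 CPM in the Adult libraries. It was at least 32.2-fold lower in EAE in plain CPM. Other kept cells had 74.5 and 79.4 CPM of Tifa in the EAE and 51.0 to 51.3 in the Adult libraries.

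Genes of MHC class II rose in EAE. Of 11 tested in the list 7 were called higher than in Adult (Cd83, H2-Aa, H2-Ab1, H2-DMa, H2-DMb1, H2-DMb2 and H2-Eb1), with a median of 1.47, and 7 of 10 were called without the surrogate light chain cells. The count was 5 of 12 without EAE 1, 4 of 13 without EAE 2, 5 of 11 with DESeq2 and 3 of 11 with Juvenile 1 and 2 in the fit. H2-Eb1, a class II beta chain, had 4538 and 5911 CPM in EAE and 2066, 1623 and 871 in Adult 1 to 3 (log2 difference 2.04, SE 0.26, edgeR adjusted p = 0.000211). H2-DMa, which helps to load peptide onto class II, had 776 and 1149 CPM against 281, 339 and 169 and held its call in 23 of 23 alternatives (log2 difference 2.19, SE 0.32, edgeR adjusted p = 5.93e-06). H2-Aa had 6165 and 8657 CPM against 3008, 2468 and 1361 (log2 difference 1.96, SE 0.37, edgeR adjusted p = 0.0348), and missed the threshold without EAE 2 (adjusted p = 0.0605). At least 2 UMIs of class II genes were found in 38 of 38 EAE cells, against 48.5% of Juvenile, 57.1% of Adult and 60.6% of Aged cells. Microglia and endothelial cells of the EAE libraries carried these transcripts too. H2-Aa was found in 95.8% and 96.0% of microglia and in 36.0% and 34.2% of endothelial cells there, against 10.7% to 16.7% and 9.86% to 10.6% in the Adult libraries. In all other kept cells H2-Aa stood at 2970 and 2819 CPM in EAE and 157 to 319 in Adult, and the part of free RNA in the B lineage levels was not tested.

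The response genes Fos, Nr4a1 and Egr1 did not pass the test against Adult, and of 11 tested in their list only Cd83, an activation marker that is also in the class II list, rose in EAE (1045 and 1793 CPM against 474 to 826, log2 difference 1.48, SE 0.40, edgeR adjusted p = 0.0283). Of 13 tested genes of the mature naive B list, 1 rose in EAE, where 6.04% of all genes tested did. The median of this list was 0.08. The gene was Fcrl1, a co-receptor of mature B cells, with 82.6 to 84.6 CPM in Adult and 194 and 308 in EAE (log2 difference 1.93, SE 0.47, edgeR adjusted p = 0.00528). Of 17 tested cell cycle genes 0 were called in EAE against Adult by edgeR, with 7 at an unadjusted p under 0.05 and 1 called by DESeq2, although 7 of them were at 0 UMIs in EAE. Without Adult 1, where 10 of 19 cell cycle genes were at 0, 13 of 19 were called. The 102688 UMIs of its 38 cells set a floor of 29.2 CPM. The genes with the largest rise under the size rule were Ptpn22, Psmg4, Zbtb20, Ptpn18 and Gimap5. Ptpn22, a phosphatase that dampens antigen receptor signals, had 134 and 196 CPM in EAE and 0, 0 and 8.46 in Adult 1 to 3 (log2 difference 5.85, SE 1.57, edgeR adjusted p = 0.012). In other kept cells it stood at 2.66 to 3.87 CPM in Adult and at 32.9 and 29.9 in EAE. The genes with the largest fitted fall under the size rule were Tifa, Sox4, Gas7, Cd72 and Tuba1a, all at 0 in both EAE libraries. Only bounds hold for them, so their rank against measured genes is not established. Gas7, Cd72 and Tuba1a were at least 6.39-, 5.06- and 4.58-fold lower in EAE in plain CPM. The 5 endothelial markers outside the rule, of which Bsg and Itm2a fell, summed to 806 and 560 CPM in EAE against 2173 to 2611 in Adult, and 6 monocyte and neutrophil markers outside it to 1612 and 2886 against 685 to 1074. Astrocyte, choroid plexus and oligodendrocyte markers summed to 6851 and 8545 CPM in EAE against 16420 to 50910 in Adult, and red blood cell markers to 74.6 and 112 against 284 to 3074. The part of these cells' RNA was not tested.

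**Figure D5:**
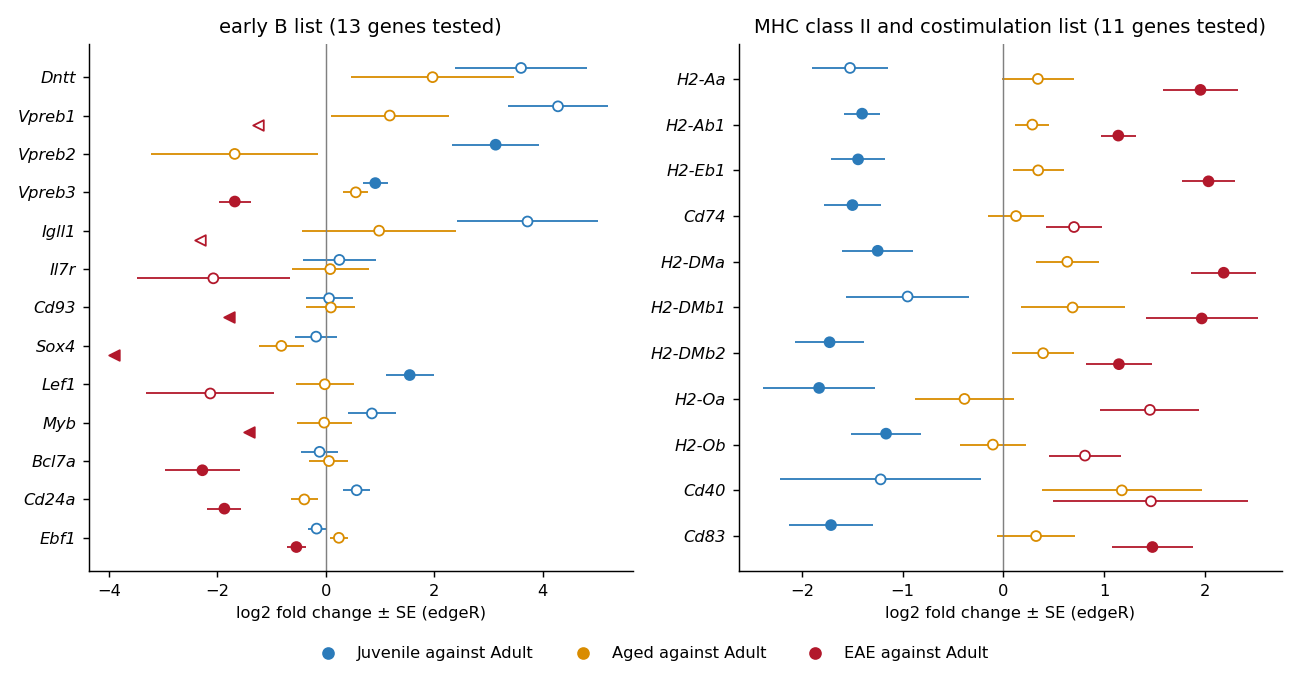
Log2 differences against Adult (x axis, with standard errors) of selected genes (y axis) in Juvenile, Aged and EAE B lineage cells, with filled marks for genes called by edgeR, open marks for genes not called and triangles at the bound of genes at 0 UMIs in EAE. These bounds use plain CPM, and the other marks come from the fit. H2-DMa lies at -1.25 in Juvenile and 2.19 in EAE.

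Among the cells admitted by the rule, transcripts of class switching and antibody secretion were rare and rested on single cells. Secreting cells with under 3 UMIs of Cd79a, Cd79b and Ms4a1 together stayed out, and the part of the rule in this rarity was not tested. In Aged 2, a UMI of Igj was found in 3.39% of endothelial cells and 3.88% of microglia, and its source was not tested. At least 2 UMIs of Ighg2b, Ighg2c, Ighg3 or Igha were found in 7 of 422 cells, of which 3 were in EAE 1, 3 in Aged, 1 in Adult 2 and 0 in Juvenile libraries. At 800 UMIs per cell, 0% to 0.2% of endothelial cells and microglia met this limit, with 1 of 500 endothelial cells in each EAE library. Among B lineage cells, 2 of 25 cells of EAE 1 (8.0%) met it and no cell of any other library did. The EAE 1 cell with the most held 1407 UMIs of Ighg2c, the IgG2c constant region, 2453 of Igkc, 440 of Igj, the chain that joins secreted antibody, and 75 of Mzb1, a folding helper of antibody, with 0 of Ighm and 0 of Pax5 among 10588 UMIs. A cell of Aged 2 held 782 UMIs of Ighm, 1967 of Igkc, 220 of Igj and 22 of Mzb1 among 6294. Ighg2c stood at 21050 CPM in EAE 1 and at 0 in the other 10 libraries. Counts of the closely related Ighg genes can be split between them.

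These cells also set the light chain level. Igkc had 42440 CPM in EAE 1 and 5267 in EAE 2, against 9465 to 10940 in Adult (log2 difference 1.65, SE 1.11, edgeR adjusted p = 0.481), and without the cells with at least 2 Igj UMIs the difference turned to -0.37. Ighm was found in 16 of 25 cells of EAE 1 (64.0%) and 12 of 13 of EAE 2 (92.3%), and in 96.0% to 100% of cells of each other library, while 0.434% to 2.43% of endothelial cells and 28.5% to 54.6% of microglia held it. Its level was 911 and 1205 CPM in EAE and 5569, 4685 and 6079 in Adult 1 to 3. The groups did not overlap, yet the log2 difference of -1.98 (SE 0.64) had an edgeR adjusted p of 0.167, and 7 of 22 alternatives called it. Juvenile 3 and 4 had 1557 and 1800 CPM of Ighm (log2 difference -1.71, SE 0.59, edgeR adjusted p = 0.145). Of 359 cells with at least 5 UMIs of Igkc or of the lambda gene Iglc2, 250 held at least 5 times as many of Igkc, 19 at least 5 times as many of Iglc2 and 90 neither. In EAE these were 20, 0 and 18 of 38 cells. Of 9 tested plasma cell genes, 1 was called higher in Juvenile and 1 in EAE against Adult, Mzb1 in both. The shares called higher over all genes tested were 7.57% and 6.04%. Without the surrogate light chain cells the counts were 0 of 5 and 1 of 5, with 13 and 131 of all 1426 genes tested. With those cells, Mzb1 rose both in Juvenile (1269 and 1165 CPM in libraries 3 and 4, log2 difference 1.47, SE 0.29, edgeR adjusted p = 0.00101) and in EAE (1791 and 840 CPM, log2 difference 2.05, SE 0.30, edgeR adjusted p = 1.36e-05) over the Adult range of 331 to 567 CPM. Without EAE 1, where the Ighg2c cell described above held 75 Mzb1 UMIs, the latter was 1.19 with an adjusted p of 0.0578.

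Ribosomal protein genes formed a large share of the calls in EAE. They made up 37.6% and 42.3% of UMIs in B lineage cells of EAE 1 and 2, 20.6% to 23.1% in Adult, 20.8% and 21.2% in Aged, 33.9% and 31.5% in Juvenile 1 and 2 and 27.0% and 27.2% in Juvenile 3 and 4. Of 118 tested, 68 rose and 1 fell in EAE against Adult, with a median of 0.94, and 44 rose and 22 fell in Juvenile against Adult, with a median of 0.17. Rps18 rose 1.83 on the log2 scale in EAE (SE 0.12, edgeR adjusted p = 6.53e-13). In other kept cells the share was 15.2% and 15.1% in EAE, 6.71% to 9.23% in Adult, 9.45% and 9.52% in Aged and 11.7% to 14.5% in Juvenile libraries. In endothelial cells it was 11.8% in both EAE libraries, 7.80% to 9.90% in Adult and 15.5% to 18.2% in Juvenile, so EAE and Juvenile stood in the opposite order there. In microglia it was 15.28% and 15.54% in EAE, 12.17% to 14.75% in Juvenile and 6.865% to 8.689% in Adult, the same order as in B lineage cells. This list was put together after the values were seen.

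The remaining comparisons share libraries with those above, so they repeat them in part. Between Aged and EAE, 230 genes were called (9.78%), 78 higher (3.32%) and 152 lower (6.46%) in Aged, and leaving out EAE 1 left 129. Of 13 early B genes tested 6 were higher in Aged, Vpreb3 among them with 1657 and 2690 CPM (log2 difference 2.23, SE 0.29, edgeR adjusted p = 9.17e-06). H2-Ab1, H2-DMa, H2-Eb1 and H2-Oa were lower in Aged, Zeb2 was higher (log2 difference 1.77, SE 0.52, edgeR adjusted p = 0.0234), and 77 of the 152 lower genes were ribosomal protein genes. Between Juvenile and EAE, 472 genes were called (20.1%), 204 higher (8.67%) and 268 lower (11.4%) in Juvenile, and leaving out EAE 1 left 223. Here 10 of 17 cell cycle genes and 8 of 13 early B genes were higher in Juvenile, and 10 of 11 class II genes were lower. Vpreb1 and Igll1 were not among the 8 early B genes called. They were at 0 in EAE, in plain CPM at least 42.8-fold and 56.3-fold below Juvenile 3 and 4. Vpreb1 was also at 0 in Juvenile 1, and Igll1 in Juvenile 1 and 2. Between Juvenile and Aged, 334 genes were called (14.2%), 186 higher (7.91%) and 148 lower (6.29%) in Juvenile, with 7 of 17 cell cycle genes higher and 8 of 11 class II genes lower. Leaving out Juvenile 4 gave 144 calls, leaving out Aged 1 gave 196 and leaving out Adult 1 gave 517. Without the surrogate light chain cells 66 of 1426 genes were called.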

How the data were processed

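Cells of perfused mouse cerebral cortex were captured with 10x Genomics 3′ chemistry version 2, in 11 libraries of 4 groups. Per the labels and the study's methods, reads were demultiplexed with bcl2fastq 2.19.1.403, assigned to barcodes with UMI-tools 0.5.3, aligned to mm10 with STAR 2.5.3a and assigned to genes with featureCounts 1.6.1. The methods name other versions of the last 3 tools. The authors deposited 1 table of raw UMI counts per gene and barcode for each library, not normalized, with 26921 genes; whether strand was used in counting is not given in the sources used here.

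The limits on gene number and mitochondrial share were those the study states. Per its methods, the study then took out further clusters, among them lymphocytes marked by Igkc or Nkg7, multiplets and low-quality cells. That step was not made here. Counts of B lineage cells were summed per library, Adult 2 and 3 were added to each other, units of at least 10 cells were kept, and edgeR 4.0.16 (R 4.3.3, limma 3.58.1) was run with TMM scaling, filterByExpr and a robust quasi-likelihood fit over all groups, with Benjamini-Hochberg adjustment over all genes tested and calls at an adjusted p under 0.05. CPM are plain UMI counts scaled to 1000000 B lineage UMIs of a library, and log2 differences come from the fit. Folds given as at least a value use plain CPM pooled over the libraries of a group, without the TMM factors. These factors were 0.766 and 0.779 in the EAE units and 1.04 to 1.127 in the others. On the scale of the fit, bounds for genes at 0 in EAE are therefore smaller. Shares were taken after thinning to 800 UMIs per cell, with exact Clopper-Pearson intervals (scipy 1.17.1) and exact two-sided permutation tests over units. Intervals and floors of 3 counts cover counting error only. Scrublet (scanpy 1.11.5) called 1 B lineage cell a doublet. It marked 0.0785% and 0.105% of cells in the Aged libraries and 1.18% to 2.45% elsewhere. The setting without doublets therefore says little about the Aged libraries, and whether the calls failed there was not tested. Doublets were kept.

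Named genes were those of 26 lists and, in each comparison, the 5 called genes with the largest log2 difference each way, given non-overlapping units and a level of 50 CPM or more in the group where the gene was higher. Ribosomal protein genes were added after their values were seen. The members and lists were chosen with earlier results of these data known. Of 259 listed symbols 250 were found, 5 of them by an older symbol, and Ighd, Ighe, Ighg1, Iglc1 and Iglc3 were not analysed here. The fit was tested on simulated counts. DESeq2 1.42.0 and other limits on cells, depths, filters, scalings and libraries were tried as alternatives. Columns and barcodes were all mapped to libraries. Deviations of same-numbered libraries were weakly correlated. In groups of 2 libraries the deviations mirror each other, so few values are independent. Whether the numbers pair the libraries is not settled by them.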

Additional observations from a re-analysis of the deposited data

Results flagged for a closer look

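Of 101 values examined over the 4 Juvenile libraries, 10 had 1 library far from the other 3, where chance flags about 1 in 20 groups. Juvenile 1 and 2, with 5 and 7 B lineage cells, hold 7 of them. The median depth of Juvenile 2 was 3029.0 UMIs. Juvenile 1 was high for Bank1 (414 CPM), H2-Ob (497), H2-Q6 (166) and Ptpn18 (663), and Juvenile 2 for Gas7 (355) and H2-Q7 (118). Rasgrp3, S100a8 and Tagap each stood apart at 6.25 CPM in Juvenile 3, the value of 1 UMI in that library. Bank1, H2-Ob, H2-Q6 and H2-Q7 are among the genes that fell in Juvenile 3 and 4 against Adult, and the 2 libraries that stand apart for them were not in that fit.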

How the results depend on the processing

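Of 3990 refits of 180 single-gene results, 3269 kept direction and side of the threshold, 572 lost the call with the same direction, 125 gained it and 24 changed sign. The counts of called genes in the 6 comparisons stayed within 1.5 times under RLE size factors, without immunoglobulin genes and without called doublets. The cause of the changes that follow was not tested. Without surrogate light chain cells 1426 genes were tested and at a limit of 5 cells 1896, against 2352. Depth limits the 38 EAE cells, where 3 counts stand for 29.2 CPM.

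For Juvenile against Adult, 383 calls became 121 with DESeq2, 191 with no low-count filter, 161 with units of at least 5 cells, 73 with library pairs summed and 59 without cells holding 2 surrogate light chain UMIs. For Aged against Adult, 1 call became 6 with no filter, 0 at 5 cells (edgeR, 106 genes at an unadjusted p under 0.05), 9 at 20 cells, 8 with all libraries separate, 0 with library pairs summed, 0 at a B lineage limit of 5 UMIs, 6 without cells of 2 Igj UMIs, 0 without surrogate light chain cells (edgeR, 132 genes at an unadjusted p under 0.05) and 5 with ribosomal protein genes left out. For EAE against Adult, 251 became 151 with DESeq2, 167 at 5 cells, 165 with library pairs summed (EAE libraries separate), 158 at the limit of 5 UMIs and 157 without ribosomal protein genes. For Aged against EAE, 230 became 145 with DESeq2, 128 with no filter, 151 with library pairs summed (Aged and EAE libraries separate), 137 at 5 UMIs and 129 without ribosomal protein genes. For Juvenile against EAE, 472 became 239 with DESeq2, 306 with no filter, 298 at 5 cells, 177 with library pairs summed, 209 at 5 UMIs and 266 without surrogate light chain cells. For Juvenile against Aged, 334 became 75 with DESeq2, 210 with no filter, 171 at 5 cells, 68 with library pairs summed and 66 without surrogate light chain cells. The settings without Igj, surrogate light chain or ribosomal transcripts were chosen after seeing the data.

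Leaving out 1 library gave 155 to 438 calls for Juvenile against Adult, 3 to 64 for Aged against Adult, 132 to 368 for EAE against Adult, 129 to 323 for Aged against EAE, 223 to 644 for Juvenile against EAE and 144 to 517 for Juvenile against Aged. A lone sample is then assumed to vary like the other groups.

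Correlations of same-numbered deviations ran from -0.0254 to 0.115, which does not settle whether the replicate numbers pair the libraries. With the replicate block and all libraries separate, the counts were 72 for Juvenile against Adult, 22 for Aged against Adult, 135 for Juvenile against EAE and 40 for Juvenile against Aged, with 246 for EAE against Adult and 260 for Aged against EAE. The block changed the sign of Cd93 (-0.33, Juvenile against Adult), S100a8 (0.70) and Vpreb1 (-5.00, both Juvenile against Aged) and Vpreb1 (0.75) and Dntt (0.97, both EAE against Adult).

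Other log2 differences that changed sign are given here with their range when 1 library was left out. In Juvenile against Adult, Sox4 went from -0.539 without Adult 1 to 0.109 without Juvenile 4, and Cd93 from -0.096 without Adult 1 to 0.22 without Adult 3, with -0.054 at 5 UMIs. Myc was at 0.065 with library pairs summed. In Aged against Adult, leaving out Aged 2 gave the lowest values, -0.486 for Ighm, -0.443 for Vpreb1, -1.178 for Igll1 and -1.372 for Dntt, and the highest were 1.168 and 1.936 for Ighm and Igll1 without Aged 1 and 6.98 and 6.253 for Vpreb1 and Dntt without Adult 3. Ighm was at -0.263 at 5 UMIs and -0.367 without Igj cells. In EAE against Adult, Igkc went from -0.70 without EAE 1 to 2.483 without EAE 2 and Iglc2 from -0.374 to 0.401. Without Igj cells they were at -0.366 and -0.115, and Iglc2 was at -0.153 with no filter. Vpreb1 and Dntt went from -6.696 and -5.163 without Adult 2 to 0 without Adult 3. Edem1, Juvenile against EAE, went from -2.188 without EAE 2 to 0.162 without EAE 1, with 0.642 without Igj cells.

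Shares are given as differences in percentage points. With no thinning the early B cell share differed from Adult by 29.6 in Juvenile, 8.84 in Aged and -9.73 in EAE (25.5, 6.70 and -6.03 after thinning). The switched share in Juvenile went from 0 to -0.397 at 1200 UMIs and -0.373 with no thinning, and in Aged from 0 to 0.451, 1.92 and, at the limit of 5 UMIs, 0.806. At that limit 1 of 14 cells of EAE 1 (7.14%) held a switched isotype, with 9 cells left in EAE 2. Plasma cell transcripts in Aged 2 were then found in 0 of 47 cells, against 1.92% of cells at the main limit. The plasma cell share went to 1.11 in Juvenile with no thinning and, in EAE, from 2.0 to 4.0 with no thinning and to 7.14 at 5 UMIs, where it rests on 1 of 14 cells of EAE 1, since EAE 2 then held 9 cells. The cell cycle share went to 10.2 in Juvenile at 5 UMIs. The planned share of cells with Ighd was not run, since this gene was not analysed here.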
